A study of Mus musculus with 6 samples.

Results

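Transcripts of blood vessels were measured in sorted spinal microglia: 34 genes chosen for endothelial cells (20 genes), for mural cells, the pericytes and smooth muscle cells of vessel walls (8), for perivascular fibroblasts (5), and for the collagen of the vascular basement membrane (1). A member was measured where the table of probe sets and genes gave it a probe set of its own, and where it had several the brightest on average was used. This held for 33 of the 34 members, among 18193 genes measured in the same way. *Ly6c1* was the exception, since its only probe set is shared with another gene symbol, and it is not reported. The SOD1 G93A group were male mice at 90 days of age, an early symptomatic stage of this model of amyotrophic lateral sclerosis, with a high copy number of a human SOD1 transgene carrying the mutation. The WT group were male littermates without the transgene, and both groups were of the B6SJL background. Microglia of the lumbar cord were sorted by the surface protein CD11b, and each of 3 arrays per genotype held RNA of at least 6 pooled mice, so that the spread between arrays was that between pools.

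Brain and spinal cord vessels are lined by endothelial cells that form the blood-brain and blood-spinal cord barrier, through tight junctions between cells and through transporters that carry nutrients in or pump compounds out. Pericytes sit on the capillary wall within the basement membrane, smooth muscle cells surround arterioles, and fibroblasts lie along larger vessels and in the meninges. Vascular cells do not carry CD11b. In RNA of a whole sort, transcripts of vascular cells and the same transcripts made by microglia cannot be told apart, nor can fewer cells of a type and less RNA per cell.

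Values were log2 signals of whole-genome Affymetrix arrays, the median of each array lying between 5.93 and 5.97, and a mean below 5 was taken as near background. Genotypes were compared with limma, and a gene passed at an adjusted p under 0.05 over all genes, as 1206 of them did (6.63%). The 7 measured microglial markers had mean log2 signals of 8.72 or more and 0 passed, though 2 were higher and 0 lower by limma at p under 0.05 before adjustment. Some markers of other cells were lower in SOD1 G93A. Those that passed were 5 of 6 monocyte, 4 of 8 astrocyte, 3 of 8 neurone, 2 of 7 oligodendrocyte, 1 of 4 erythroid and 1 of 7 platelet markers. Of T cell markers 0 of 5 passed (1 lower and 1 higher before adjustment). In the lists with falls, 2 astrocyte, 1 neurone, 1 oligodendrocyte, 1 erythroid and 2 platelet markers had higher means in SOD1 G93A. The median log2 fold change of the platelet markers was -0.0575. The mean log2 signal of the astrocyte markers ranged from 6.27 to 6.91 over SOD1 G93A arrays and from 7.14 to 7.92 over WT arrays, and that of monocyte markers from 9.46 to 9.84 and from 10.42 to 10.91. The *Gapdh* control probe sets measure how far labelled RNA extends to the 5' end. Their 3' signal exceeded their 5' signal by 0.77 less in SOD1 G93A on the log2 scale (-0.77, p = 0.1 in a two-sided exact permutation test, and no smaller p is possible with 3 arrays against 3). The part of these differences in the values below was not tested, apart from the fits named there.

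Of the 33 vascular genes 1 fell in SOD1 G93A microglia, *Tmem204*, 0 rose, and 32 did not pass, where 2.53% of all genes fell and 4.09% rose. Before adjustment 7 members had p under 0.05 (21.6% of all genes did), of which 6 were lower and 1 was higher (8.86% and 12.7% of all genes). The median log2 fold change, SOD1 G93A minus WT, was -0.023 over the 33 members and 0.022 over all genes. The median of its absolute size was 0.13 and 0.14. The 3 arrays of a genotype did not overlap with the other 3 in 8 members (24.2%, against 27.5% of all genes). All 8 were lower in SOD1 G93A, as were 10.9% of all genes, and 0 were higher, as were 16.6% of all genes. They were *Tmem204*, *Slco1c1*, *Egfl7* and *Mfsd2a* of the endothelial genes, *Acta2* and *Vtn* of the mural genes, and *Col1a2* and *Dcn* of the fibroblast genes. Apart from *Tmem204*, the gap between the genotypes was at most 0.12 on the log2 scale.

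**Figure D1:**
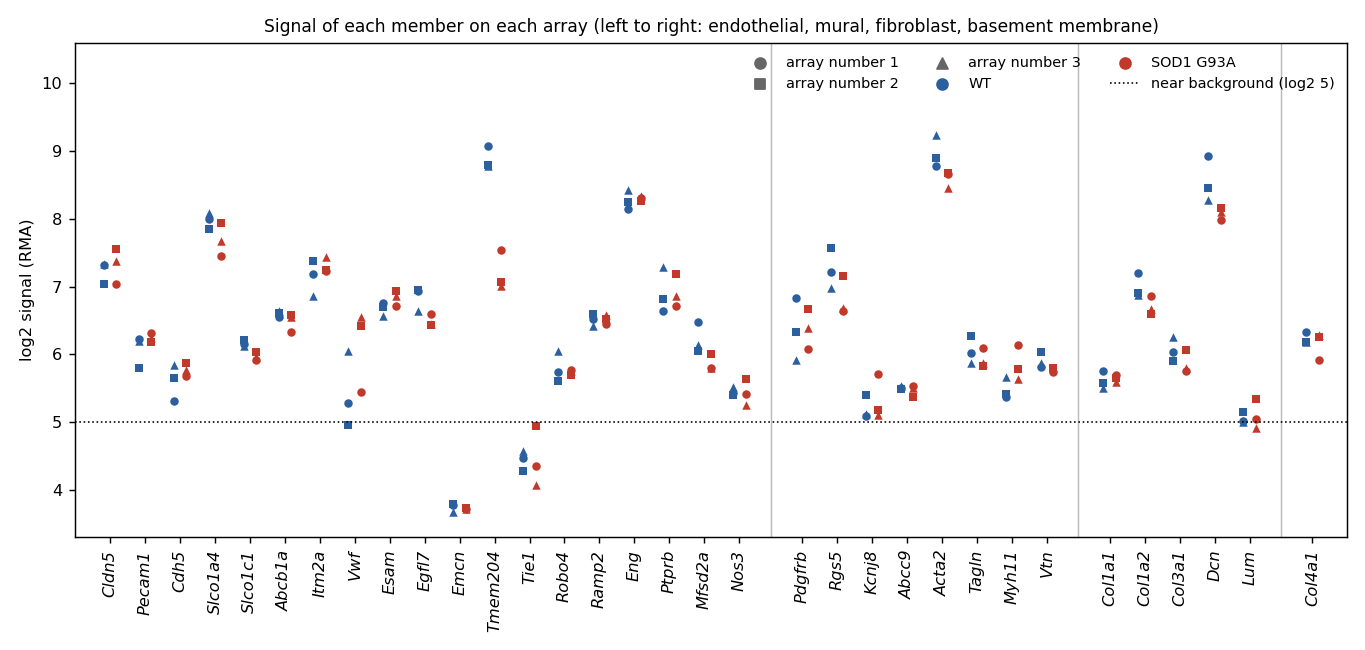
Log2 signal of each of the 33 members (horizontal axis) on each array, blue for WT and red for SOD1 G93A, with the marker shape giving the array number and the dotted line a log2 signal of 5. *Tmem204* is the gene whose blue and red points lie far apart (8.77 to 9.08 in WT and 7.01 to 7.54 in SOD1 G93A), and *Emcn* and *Tie1* lie below the dotted line.

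*Tmem204* encodes a membrane protein related to the claudins, found at junctions between cells. Its log2 signal was 9.08, 8.79 and 8.77 on the WT arrays and 7.54, 7.07 and 7.01 on the SOD1 G93A arrays. The lowest WT array lay 1.23 above the highest SOD1 G93A array. The mean fell from 8.88 ± 0.17 (SD, n = 3) to 7.21 ± 0.29 (SD, n = 3), which is 3.19-fold lower (log2 fold change -1.67, standard error, SE, of 0.16, 95% interval from -2.04 to -1.31, adjusted p = 0.00153 from limma).

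*Tmem204* had 2 other probe sets, and the genotypes were apart on both. The second gave 7.10, 7.12 and 7.24 in WT and 6.40, 6.20 and 6.40 in SOD1 G93A, a log2 fold change of -0.82 (SE 0.11, adjusted p = 0.00682 from limma over all 45037 probe sets). The third gave 6.76, 6.54 and 6.41 in WT and 5.15, 4.73 and 4.84 in SOD1 G93A, a log2 fold change of -1.66 (SE 0.14, adjusted p = 0.00123 over all probe sets). The size of the fall thus ranged from 1.77-fold to 3.19-fold between probe sets, and on the third the SOD1 G93A mean of 4.91 was near background. The first and the third carry the suffix x_at, which Affymetrix gives to probe sets that may cross-hybridise, and the second does not. Of the 27 probe sets of members that were not used, those 2 of *Tmem204* were the ones to pass over all probe sets (4.64% of which passed), and 14 had a mean below 5.

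The fall of *Tmem204* stood beside lower markers of several other cells, given above. It also stood beside 18 other endothelial members, of which 0 passed, with a median log2 fold change of 0.0036. What bearing either has on the fall was not tested. With the *Gapdh* measure added to the fit as a covariate, *Tmem204* had -1.35 (adjusted p = 0.0383), and with any 1 array left out it lay between -1.84 and -1.58 (adjusted p from 0.00041 to 0.0155). It passed in 17 of 18 other settings. The exception was the methods' own unequal-variance test after adjustment (adjusted p = 0.197), by which 0 of all genes passed. By the methods' thresholds, a log2 change of at least 0.81 in either direction with an unadjusted p under 0.05 in that test, 424 genes were called (2.33%), with *Tmem204* among them and 0 of the 32 other members.

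**Figure D2:**
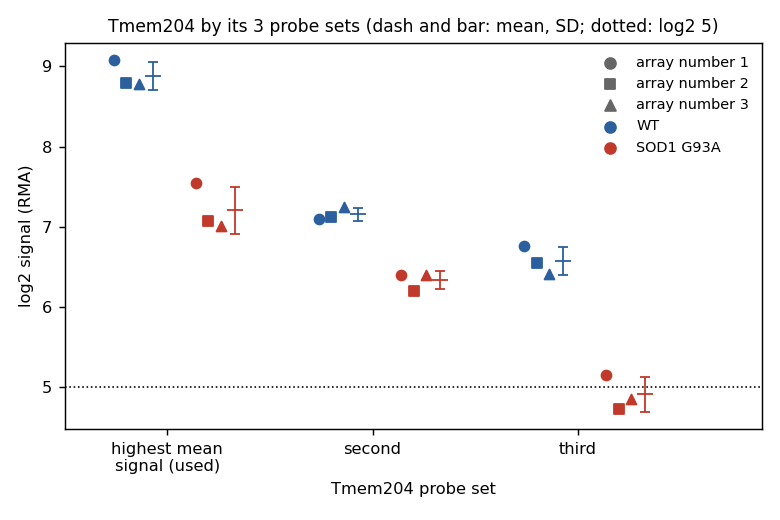
Log2 signal of *Tmem204* by its 3 probe sets, ordered by mean signal, in WT (blue) and SOD1 G93A (red), with a point for each array, the mean as a dash and the SD as a bar (n = 3). The genotypes are apart on each probe set, by 1.23, 0.70 and 1.26 between their nearest arrays.

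The other 18 endothelial genes had a median log2 fold change of 0.0036, ranging from -0.35 to 0.71, with 10 above 0 and 8 below. The 4 genes of endothelial junctions and adhesion did not pass, and all had values above 0. *Cldn5*, which encodes the main claudin of the barrier's tight junctions, had 7.32, 7.03 and 7.33 in WT and 7.04, 7.55 and 7.38 in SOD1 G93A. These arrays interleaved, with a log2 fold change of 0.09 (95% interval from -0.25 to 0.44, adjusted p = 0.786 from limma). *Cdh5*, of the adherens junction protein VE-cadherin, had 0.18 (from -0.16 to 0.51), *Pecam1*, of the adhesion molecule CD31, 0.18 (from -0.13 to 0.49), and *Esam*, of an endothelial adhesion molecule, 0.16 (from -0.09 to 0.41). For these 4 genes the interval lay within 0.81 of 0, which is the fold threshold of the study's methods on the log2 scale. Junction and adhesion genes of the further list did not share their direction. *Tjp1* had -0.35 and was lower before adjustment (adjusted p = 0.156 from limma). *Icam2* (-0.20), *Ocln* (-0.12), *Cgnl1* (-0.015) and *Lsr* (0.011) did not pass either. No direction of junction genes as a class is thus to be read from the 4 members.

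The 4 barrier transporters among the members had values below 0, and 0 of them passed (1, *Mfsd2a*, had p under 0.05 before adjustment). Transporters of the further list did not share this direction. *Abcg2* rose by 0.53, and *Slc2a1* (0.47), *Slc38a5* (0.155) and *Slc7a5* (-0.0022) did not pass by the probe sets used. No direction of barrier transporters as a class is thus to be read from the 4. *Slco1a4*, of an organic anion transporter, had 7.995, 7.84 and 8.08 in WT and 7.44, 7.94 and 7.68 in SOD1 G93A. The second SOD1 G93A array lay within the WT range, and the log2 fold change was -0.29 (SE 0.14, adjusted p = 0.295 from limma). *Mfsd2a*, of a lipid transporter of the barrier, had 6.47, 6.04 and 6.14 in WT and 5.80, 6.00 and 5.79 in SOD1 G93A. Its genotypes were 0.04 apart at their nearest, with a log2 fold change of -0.35 (SE 0.14, adjusted p = 0.173). *Slco1c1*, of a thyroid hormone transporter that astrocytes also express, had -0.18 (adjusted p = 0.339), and *Abcb1a*, of the efflux pump P-glycoprotein, -0.12 (adjusted p = 0.615).

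Receptors and signalling genes of the endothelium differed little. *Ramp2*, of a protein that forms the adrenomedullin receptor, had a log2 fold change of 0.0008, *Ptprb*, of the phosphatase VE-PTP, 0.0065, *Nos3*, of endothelial nitric oxide synthase, -0.015, *Robo4*, of an endothelial guidance receptor, -0.062, and *Tie1*, of a receptor tyrosine kinase, 0.015 with a mean signal of 4.45, near background. *Eng*, of the TGF-beta co-receptor endoglin, which monocytes and macrophages also express, had 8.14, 8.25 and 8.42 in WT and 8.30, 8.26 and 8.34 in SOD1 G93A, a log2 fold change of 0.028. Its other probe set had -0.34, with no overlap between genotypes and an adjusted p of 0.217 by limma over all probe sets. The 2 probe sets of *Eng* thus gave different values.

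Secreted and surface proteins of the endothelium ranged from -0.35 to 0.71, and 0 of these 4 genes passed (1, *Egfl7*, was lower before adjustment). *Vwf*, of the clotting factor that carries factor VIII, had 5.28, 4.95 and 6.05 in WT and 5.45, 6.42 and 6.55 in SOD1 G93A. The genotypes overlapped through the third WT and the first SOD1 G93A array, and the log2 fold change was 0.71 (SE 0.34, adjusted p = 0.262 from limma). Its 95% interval ran from -0.05 to 1.47, so that a rise of up to 2.77-fold lay within it. With the *Gapdh* covariate the value of *Vwf* was 0.125 (adjusted p = 0.923), and with 1 array left out it ran from 0.47, without WT replicate 2 (adjusted p = 0.545), to 1.06, without SOD1 G93A replicate 1 (adjusted p = 0.0644). Without both arrays numbered 1 it was 0.99 (adjusted p = 0.0504 from limma). *Vwf* passed in 0 of 18 other settings. Platelets also hold *Vwf* protein, and whether they add to its RNA signal here was not tested. Of the 7 platelet markers 1, *Pf4*, was lower and 6 did not pass, with a median log2 fold change of -0.0575. *Egfl7*, of a secreted protein of growing vessels, had 6.94, 6.95 and 6.64 in WT and 6.59, 6.43 and 6.45 in SOD1 G93A, a log2 fold change of -0.35 (SE 0.12, adjusted p = 0.128). Its genotypes were 0.05 apart at their nearest, and its 3 other probe sets had -0.29, -0.19 and -0.17, with overlap on each. *Itm2a*, of a membrane protein that T cells also express, had 0.17, and -0.059 by its other probe set. *Emcn*, of the sialomucin endomucin, was near background at 3.73 on average and had -0.023.

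Of the 8 mural genes 0 passed limma's test (1 higher and 2 lower before adjustment), and their median log2 fold change was -0.081. Among pericyte genes *Rgs5*, which encodes a regulator of G-protein signalling, had 7.21, 7.57 and 6.98 in WT and 6.64, 7.15 and 6.68 in SOD1 G93A. The second SOD1 G93A array lay within the WT range, and the log2 fold change was -0.43 (SE 0.19, 95% interval from -0.86 to -0.0038, adjusted p = 0.227 from limma). Its 3 other probe sets had -0.27, -0.12 and 0.18, with overlap on each, and the last 2 were near background. *Pdgfrb*, of the receptor that recruits pericytes to vessels, varied more between arrays than between genotypes, from 5.92 to 6.83 in WT and from 6.07 to 6.67 in SOD1 G93A, with 0.013 (SE 0.23). *Kcnj8* and *Abcc9*, neighbouring genes for the pore and the regulatory subunit of a potassium channel of pericytes, had 0.12 and -0.039, and *Vtn*, of vitronectin, had -0.13 by the probe set used and -0.20 by the other.

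The smooth muscle genes went different ways, and 0 of the 3 passed (before adjustment *Acta2* was lower and *Myh11* higher). *Acta2*, of smooth muscle actin, had 8.78, 8.90 and 9.23 in WT and 8.66, 8.67 and 8.46 in SOD1 G93A. Every SOD1 G93A array was below every WT array, by 0.10 at the nearest, with a log2 fold change of -0.37 (SE 0.14, adjusted p = 0.163 from limma). *Myh11*, of the smooth muscle myosin heavy chain, had 5.37, 5.41 and 5.66 in WT and 6.14, 5.79 and 5.64 in SOD1 G93A, a log2 fold change of 0.38 (SE 0.15, adjusted p = 0.187). The genotypes overlapped by 0.019, through the third arrays. Both values were smaller by the mean of all probe sets of the gene, -0.19 for *Acta2* (adjusted p = 0.278 from limma) and 0.24 for *Myh11* (adjusted p = 0.276). The probe set used for *Acta2* carries a suffix, and without suffixed probe sets *Acta2* had -0.21 (adjusted p = 0.299). *Tagln*, of the actin-binding protein transgelin, had -0.12 (adjusted p = 0.67).

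Of the 5 fibroblast genes 0 passed limma's test (1 lower and 0 higher before adjustment), with a median of -0.19. *Dcn*, of the matrix proteoglycan decorin, had 8.93, 8.45 and 8.28 in WT and 7.98, 8.16 and 8.10 in SOD1 G93A. The genotypes were 0.12 apart at their nearest, and the log2 fold change was -0.47 (SE 0.17, 95% interval from -0.85 to -0.096, adjusted p = 0.135 from limma). *Lum*, of the related proteoglycan lumican and the neighbour of *Dcn* in the RefSeq gene table, had 0.048. *Col1a2*, of a chain of type I collagen, had 7.202, 6.91 and 6.87 in WT and 6.86, 6.59 and 6.67 in SOD1 G93A, a log2 fold change of -0.29 (SE 0.13, adjusted p = 0.241), the genotypes lying 0.014 apart. *Col1a1*, of the other chain of the same collagen, had 0.03, and *Col3a1*, of type III collagen, -0.19. When all probe sets of a gene were averaged, *Dcn* had -0.28 (adjusted p = 0.097 from limma), *Col1a2* -0.17 (adjusted p = 0.374) and *Col3a1* -0.16 (adjusted p = 0.392). *Col4a1*, of the type IV collagen of the basement membrane, had 6.33, 6.19 and 6.18 in WT and 5.92, 6.26 and 6.28 in SOD1 G93A. The first SOD1 G93A array was below the others, and the log2 fold change of *Col4a1* was -0.083 (SE 0.13, adjusted p = 0.776).

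**Figure D3:**
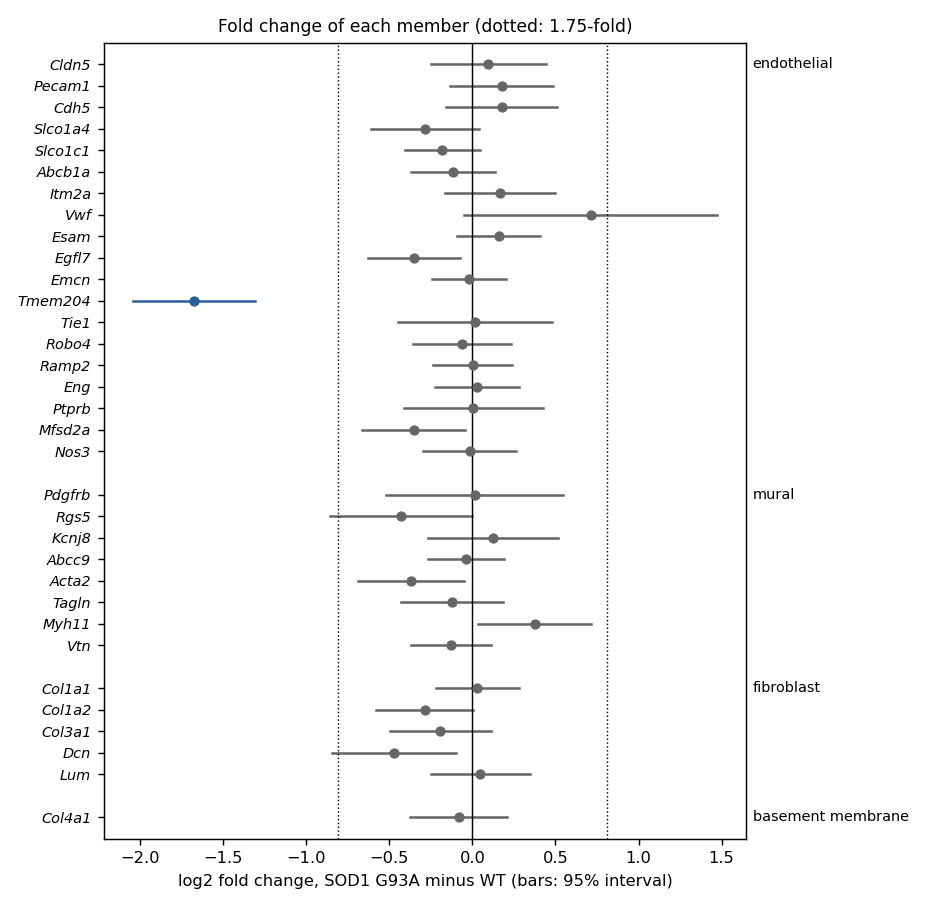
Log2 fold change of each of the 33 members, SOD1 G93A minus WT, with its 95% interval from limma (not adjusted for the number of genes), blue for the gene that fell and grey for those that did not pass, and dotted lines at 0.81 and -0.81, the methods' fold threshold. The interval of *Tmem204* lies beyond the lower line, and those of *Vwf*, *Rgs5* and *Dcn* cross a dotted line.

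For 29 of the 33 members (87.9%, against 88.8% of all genes) the 95% interval lay between -0.81 and 0.81, the methods' fold threshold on the log2 scale. Beside *Tmem204* the exceptions were *Vwf*, whose interval reached a rise of 2.77-fold, and *Rgs5* and *Dcn*, whose intervals reached falls of 1.81-fold and 1.80-fold. The median standard error of the members was 0.14 on the log2 scale, and 0.13 over all genes.

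The arrays of a genotype varied in all 3 classes. Taken as the deviation of each gene from its own mean over the 6 arrays, the median of the 19 endothelial genes ran from -0.076 on SOD1 G93A array 1 to 0.09 on WT array 3. That of the 8 mural genes ran from -0.083 on SOD1 G93A array 3 to 0.12 on WT array 2, and that of the 5 fibroblast genes from -0.17 on SOD1 G93A array 3 to 0.13 on WT array 1. The mural median was below 0 on all 3 SOD1 G93A arrays and on WT array 3, and the fibroblast median was below 0 on SOD1 G93A arrays 1 and 3 and on WT array 3. WT array 3 was above the genes' own mean in 14 of 19 endothelial genes, and SOD1 G93A array 1 in 4 of 19. For all 18193 genes the same medians lay between -0.036 and 0.045.

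**Figure D4:**
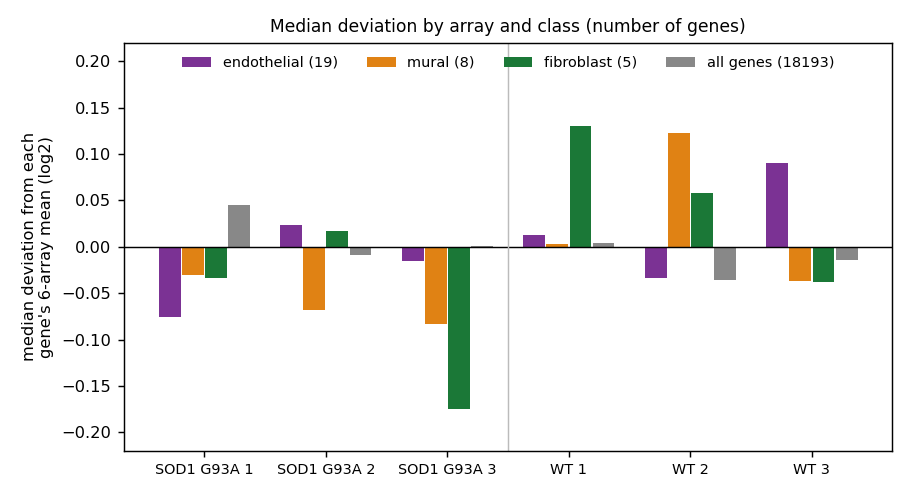
Median deviation of the genes of each class from their own mean over the 6 arrays (vertical axis, log2 units), by array, for 19 endothelial, 8 mural and 5 fibroblast genes and for all 18193 genes. The lowest bar is that of the fibroblast genes on SOD1 G93A array 3 (-0.17), and the highest are fibroblast genes on WT array 1 (0.13) and mural genes on WT array 2 (0.12).

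Further genes chosen for the same cells were read in the same fit, in which 4.09% of all genes rose and 2.53% fell. Of 29 further endothelial genes 4 rose and 2 fell (20.7% in either direction, against 6.63% of all genes), with a median of 0.051. The list was chosen with earlier results of these data known, so its share is not a test of an excess. The study's own pathway analysis already names *Flt1* (as VEGFR-1), *Cd34*, *Bmx* and *Pltp* among dysregulated genes. Of 13 further mural genes 1 rose (7.69%, median 0.07), and of 13 fibroblast and 12 basement membrane genes 0 passed limma's test (0 and 2, both higher, before adjustment, with medians of -0.039 and -0.02). *Ctla2a*, of a cathepsin inhibitor, rose from 6.10, 5.61 and 5.65 in WT to 7.82, 8.10 and 8.13 in SOD1 G93A, 4.69-fold (log2 fold change 2.23, SE 0.16, adjusted p = 0.000401 from limma). Its groups were 1.72 apart at their nearest arrays. *Flt1*, of a VEGF receptor that monocytes and macrophages also express, rose by 0.87 (adjusted p = 0.0112), and its 3 other probe sets had 1.33, 0.89 and 0.45, of which the last did not pass. *Cd34*, of a sialomucin of endothelium and blood progenitors, rose by 0.998 from 10.06 to 11.06, and *Abcg2*, of an efflux transporter of the barrier, by 0.53. The mean signals of *Cd34* (10.56), *Abcg2* (8.92) and *Pltp* (9.34, given below) were above those of all endothelial members (8.29 at most). Which cells made these transcripts was not tested. *Slc2a1*, of the barrier's glucose transporter, had 0.47 and did not pass (adjusted p = 0.0877), whereas its 2 other probe sets had 0.74 and 1.013 and passed over all probe sets (adjusted p = 0.0379 and 0.0123).

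The falls were of *Pltp*, of the phospholipid transfer protein, at -1.18 (adjusted p = 0.0179 from limma), and *Bmx*, of a tyrosine kinase of endothelial and myeloid cells, at -0.91 (adjusted p = 0.0107). The other probe set of *Pltp* had -0.10, with an adjusted p of 0.84 over all probe sets. *Cspg4*, of the proteoglycan NG2 of pericytes and oligodendrocyte precursors, rose by 0.81 (7.01, 7.001 and 6.96 in WT against 7.74, 7.68 and 7.99 in SOD1 G93A) and by 1.67 on its other probe set. *Lamc1*, of a laminin chain of the basement membrane, was just outside the threshold at 0.45 (adjusted p = 0.05). *Lamb2*, of another laminin chain, had 0.32, and *Col4a2*, the neighbour and partner of *Col4a1*, had -0.049. The largest values among fibroblast genes were *Serpinf1* (-0.38) and *Dpt* (-0.30), which did not pass, and among mural genes that did not pass *Cnn1* (0.27) and *Tbx18* (0.16), both near background. With the *Gapdh* covariate *Ctla2a* was the 1 further gene of these lists to pass (2.12, adjusted p = 0.0135). Those that no longer passed kept their sign in that fit, with -1.08 for *Bmx*, -0.88 for *Pltp*, 0.80 for *Flt1*, 0.64 for *Cspg4*, 0.53 for *Cd34* and 0.35 for *Abcg2*, and adjusted p from 0.0745 to 0.328. When 1 array was left out, *Flt1* did not pass without SOD1 G93A replicate 3 (adjusted p = 0.0514), and the adjusted p of *Cd34* was 0.0817 without SOD1 G93A replicate 2, 0.0778 without SOD1 G93A replicate 3 and 0.0885 without WT replicate 3. That of *Pltp* was 0.065, 0.0778 and 0.0684 without SOD1 G93A replicates 2 and 3 and WT replicate 2. *Abcg2* passed only without SOD1 G93A replicate 1, and its adjusted p was 0.0513 to 0.103 without each of the 5 others. *Ctla2a*, *Bmx* and *Cspg4* passed whichever array was left out.

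**Figure D5:**
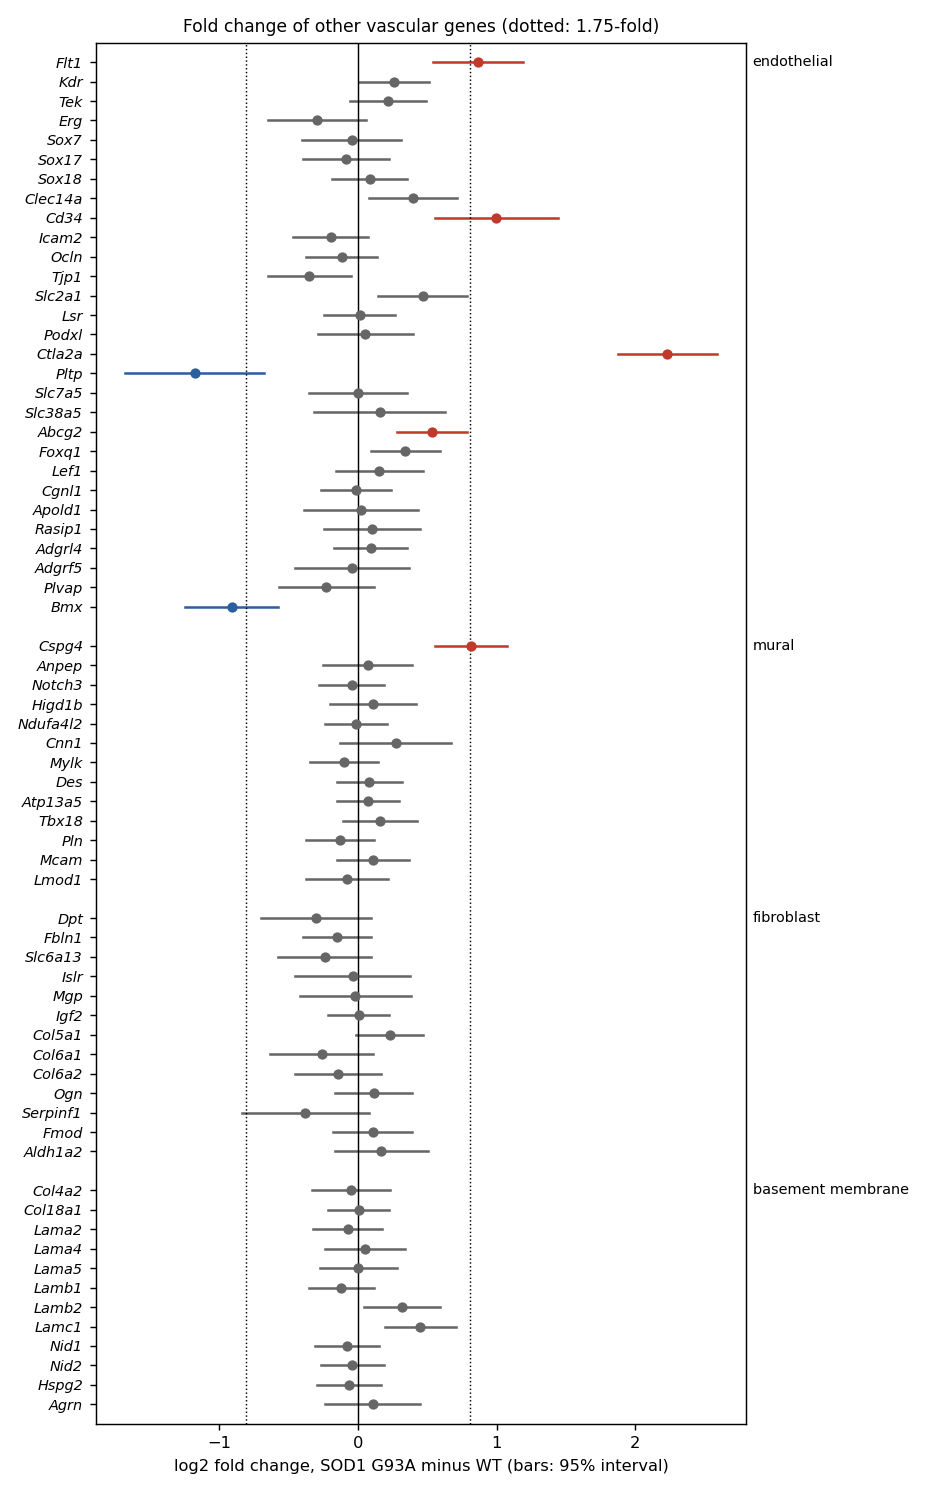
Log2 fold change of the 67 further vascular genes measured, SOD1 G93A minus WT, with 95% intervals from limma (not adjusted for the number of genes), red for the 5 that rose, blue for the 2 that fell and grey for those that did not pass. *Ctla2a* lies farthest to the right, at 2.23, and the fibroblast and basement membrane genes lie around 0.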

How the data were processed

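CD11b-positive microglia of the lumbar cord were profiled on Affymetrix mouse genome arrays, 3 of SOD1 G93A and 3 of WT mice. What the authors deposited is a log2 signal for each probe set. Their processing notes name RMA and Partek (versions not given in the sources used here), whereas the study's methods name the MAS software. RMA equalises the arrays' distributions, so that a change shared by most genes would not be seen. The methods describe a double amplification of RNA, and the labels a protocol from micrograms of total RNA. Of 45101 probe sets 64 controls were left out. Of the remaining 45037, 34945 have 1 gene symbol, 932 have several and 9160 have none.

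A linear model with genotype was fitted to all 45037 in limma 3.58.1 (lmFit, then eBayes; R 4.3.3). Each of 18193 symbols was read from its probe set with the highest mean, with Benjamini-Hochberg adjustment over these genes. Precision is limited by the number of arrays. Array p-values measure the spread between pools. Members and lists were chosen with earlier results of these data known. Every member is named, and array values are given for those that passed and those with the largest changes in their class (up to 4 endothelial, 3 mural, 2 fibroblast and the basement membrane gene). Those of *Cldn5* and *Eng* were added after their values were seen. Of the further lists, genes that passed or the 2 with the largest change in each are named. *Col4a2*, *Slc2a1*, *Tjp1*, *Icam2*, *Ocln*, *Cgnl1*, *Lsr*, *Slc38a5* and *Slc7a5* were added after their values were seen. The promoter table used here holds no entry for *Tmem204*. Python 3.11.15 with pandas 2.3.3, scipy 1.17.1 and matplotlib 3.10.9 served for summaries, permutation tests and figures.

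The alternatives were the methods' t-test, eBayes with trend and robust, the mean of a gene's probe sets, probe sets without the suffixes a_at, s_at or x_at, adjustment over all probe sets, a minimum mean signal of 5, median-centred or quantile-normalised arrays, array weights, the array number as a block, *Gapdh* as a covariate, the arrays numbered 1 left out together, and each array left out in turn.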

Additional observations from a re-analysis of the deposited data

How the results depend on the processing

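Of the members, *Tmem204* alone passed in every setting except 2: the methods' t-test with Benjamini-Hochberg adjustment, by which 0 endothelial members, 0 further endothelial and 0 further mural genes passed, and the fit with the array number as a block. With that block 1 mural member passed, *Rgs5* (-0.43, adjusted p = 0.0383), 2221 genes in all passed instead of 1206, and 1 further basement membrane gene did. The numbers are not known to pair the arrays: the deviations of same-numbered arrays from their group means correlated at 0.44, 0.24 and 0.041 across genes. *Lamc1* made the count of further basement membrane genes 1 also with the mean of all probe sets, the minimum signal of 5, median-centred arrays, quantile normalisation and array weights. With the *Gapdh* covariate 94 genes in all passed, with 1 further endothelial and 0 further mural genes. With 1 array left out, 358 to 1166 genes in all passed, and 2 to 6 further endothelial genes. The medians with 1 array left out ran from -0.18 to -0.03 for mural members, from -0.27 to -0.099 for fibroblast members, from 0.024 to 0.12 for further endothelial, from 0.017 to 0.071 for further mural, from -0.11 to 0.0053 for further fibroblast and from -0.063 to -0.0015 for further basement membrane genes. That of *Col4a1* moved to -0.26 with the *Gapdh* covariate, and to 0.084 without both arrays numbered 1. The further mural median was -0.0295 with the minimum signal of 5 and 0.033 without both arrays numbered 1, and the further fibroblast median -0.0798 with the mean of all probe sets, -0.14 with the minimum signal and -0.0064 with array weights. The cause of these shifts was not tested.

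Members with changes close to 0 changed sign without passing. With the *Gapdh* covariate these were *Cldn5* (-0.025), *Ramp2* (-0.081), *Eng* (-0.021), *Ptprb* (-0.058), *Nos3* (0.13) and *Pdgfrb* (-0.031). With the mean of all probe sets they were *Eng* (-0.16), *Ptprb* (-0.045) and *Col1a1* (-0.047), with array weights *Eng* (-0.015) and *Nos3* (0.023), and with median-centred arrays *Nos3* (0.0026). Without both arrays numbered 1 they were *Eng* (-0.037), *Ptprb* (-0.028), *Kcnj8* (-0.12) and *Col4a1* (0.084). With 1 array left out, the ranges that include both signs were -0.019 to 0.23 for *Cldn5*, -0.059 to 0.00050 for *Emcn*, -0.22 to 0.21 for *Tie1*, -0.16 to 0.062 for *Robo4*, -0.045 to 0.0402 for *Ramp2*, -0.037 to 0.10 for *Eng*, -0.13 to 0.19 for *Ptprb*, -0.12 to 0.075 for *Nos3*, -0.21 to 0.25 for *Pdgfrb*, -0.064 to 0.24 for *Kcnj8*, -0.071 to 0.011 for *Abcc9*, -0.023 to 0.10 for *Col1a1*, -0.072 to 0.14 for *Lum* and -0.15 to 0.035 for *Col4a1*. No direction is to be read from these genes. *Emcn* and *Tie1* have no value at the minimum signal of 5.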
